A study of Homo sapiens with 24 samples.

Results

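The subtelomeric domains of HN-SCC-151 cells were the broad H4K20me3 peaks in the outer parts of the autosomes. A peak was taken when its midpoint lay in the first or last 3 Mb of chromosomes 1 to 22 of hg38, and overlapping peaks of the 14 libraries were merged. The short arms of chromosomes 13, 14, 15, 21 and 22 and the long arm of chromosome 19 were left out, which left 38 chromosome ends. This gave 1119 merged regions out of 32145 in the whole series, in windows that make up 114 Mb or 3.97% of the autosomes. An end is named by its chromosome and arm, so that 6p is the outer part of the short arm of chromosome 6.

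HN-SCC-151 is a head and neck squamous cell carcinoma line without human papillomavirus, labelled wild type, and every library came from this 1 line. H4K20me3 was mapped by CUT&RUN, in which a nuclease tethered to an antibody cuts out the DNA around the marked histones, with 500000 cells per reaction. The inhibitor arm set 3 libraries treated with A-196 at 2.5 µM, a small molecule that inhibits the H4K20 methyltransferases SUV420H1 and SUV420H2, against 3 libraries with the solvent DMSO, and the siRNA arm set 4 libraries with siRNAs to SUV420H1 (siSUV420H1) against 4 with control siRNAs (siNC), all after 6 days. Since 3 dishes are described for each condition but each siRNA group has 4 libraries, the p-values cover only the scatter among the libraries themselves, which may be in part technical.

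H4K20me3 is histone H4 with methyl groups filling every place on its lysine 20. In mammalian cells it is laid down by SUV420H1 (KMT5B) and SUV420H2 (KMT5C), which add methyl groups to histone H4 that already carries 1, and it is a classical mark of silent chromatin at telomeres, centromeres and repeats. Subtelomeres, the stretches just inside the telomere repeats, are rich in genes and in blocks copied between chromosomes, among them zinc finger genes, olfactory receptor genes and the D4Z4 repeats that hold DUX4. Genes near a telomere can be silenced by their position, an effect described in human cells for genes such as TERT, ISG15 and DUX4.

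The lists held peak positions and no read counts, so depth was unknown, absence of a peak does not show absence of the mark, and fewer cells with the mark cannot be told apart from less mark per cell. Peak ends lay on a grid of 1000 bp and no peak was narrower than 5 kb. The peaks of the arms were called against different IgG libraries, so values are compared within an arm. A-196 replicate 2 stood apart: it had 574 peaks at the ends, against 293 and 302 in the other A-196 libraries, and 351 of the 581 regions found in 1 library alone were its own. On average, 0.368 of the bases at the ends covered in either of a pair of A-196 libraries were covered in both, against 0.805 for pairs of DMSO libraries, 0.693 for siSUV420H1 and 0.799 for siNC. The knockdown of SUV420H1 was not checked here, since no RNA or protein was analysed.

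The promoters below are shown for the range of outcomes at the ends: under peaks in every library, in control libraries alone, in A-196 libraries alone, and in every group but siNC. Of 1611 promoters of coding genes at the ends, 98 had a peak in at least 1 library and 17 in all 14. A promoter here is the RefSeq window (GRCh38.p14) of 300 bases around a gene's start, printed on the strand of the gene with CpG pairs in capitals. ZNF141 at 4p and ZNF268 at 12q, which code for zinc finger proteins, had peaks over their promoters in all 14 libraries, as had SIRPB2 at 20p, a signal-regulatory protein gene of the immunoglobulin family. The promoter of the neighbouring SIRPD had a peak in 3 of 3 DMSO and 4 of 4 siNC libraries and in 0 A-196 and 0 siSUV420H1 libraries. The promoter of SDCBP2, which codes for an adaptor protein with PDZ domains, had a peak in 3 of 3 A-196 libraries and in 0 of the other libraries. Another start of SDCBP2 (chr20:1325820-1326119) had a peak in 1 A-196 library alone. The promoter of ANHX, a homeobox gene, had a peak in 3 A-196, 3 DMSO and 4 siSUV420H1 libraries and in 0 siNC libraries.
ZNF141, chr4:337564-337863, plus strand: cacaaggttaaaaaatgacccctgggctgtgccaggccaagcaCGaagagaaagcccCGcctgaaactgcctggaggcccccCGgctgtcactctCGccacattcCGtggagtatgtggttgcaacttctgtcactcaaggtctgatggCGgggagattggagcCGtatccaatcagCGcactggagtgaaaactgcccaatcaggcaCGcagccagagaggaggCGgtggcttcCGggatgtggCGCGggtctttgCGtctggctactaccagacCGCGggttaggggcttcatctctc
ZNF268, chr12:133181245-133181544, plus strand: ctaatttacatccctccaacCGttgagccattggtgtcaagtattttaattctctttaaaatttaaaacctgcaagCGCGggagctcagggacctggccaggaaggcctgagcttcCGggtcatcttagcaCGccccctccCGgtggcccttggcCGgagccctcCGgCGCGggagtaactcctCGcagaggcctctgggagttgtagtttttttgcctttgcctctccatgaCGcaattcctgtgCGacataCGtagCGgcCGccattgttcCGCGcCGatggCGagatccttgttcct
SIRPB2, chr20:1491371-1491670, minus strand: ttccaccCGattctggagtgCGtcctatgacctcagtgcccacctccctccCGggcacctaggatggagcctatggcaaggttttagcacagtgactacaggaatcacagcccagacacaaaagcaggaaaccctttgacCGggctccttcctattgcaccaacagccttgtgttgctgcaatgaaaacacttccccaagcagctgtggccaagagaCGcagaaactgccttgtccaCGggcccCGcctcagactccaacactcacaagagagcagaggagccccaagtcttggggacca
SIRPD, chr20:1557656-1557955, minus strand: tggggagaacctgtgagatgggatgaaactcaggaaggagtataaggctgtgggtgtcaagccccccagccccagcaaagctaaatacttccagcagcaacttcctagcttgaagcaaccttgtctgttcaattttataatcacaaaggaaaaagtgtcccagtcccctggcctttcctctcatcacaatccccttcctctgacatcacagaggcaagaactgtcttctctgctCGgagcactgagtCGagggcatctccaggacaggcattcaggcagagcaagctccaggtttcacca
SDCBP2, chr20:1329090-1329389, minus strand: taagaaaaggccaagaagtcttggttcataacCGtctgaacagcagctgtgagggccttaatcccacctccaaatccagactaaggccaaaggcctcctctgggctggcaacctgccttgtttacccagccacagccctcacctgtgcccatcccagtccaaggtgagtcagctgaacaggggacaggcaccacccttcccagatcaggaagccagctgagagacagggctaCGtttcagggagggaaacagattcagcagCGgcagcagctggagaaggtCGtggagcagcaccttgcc
ANHX, chr12:133235828-133236127, minus strand: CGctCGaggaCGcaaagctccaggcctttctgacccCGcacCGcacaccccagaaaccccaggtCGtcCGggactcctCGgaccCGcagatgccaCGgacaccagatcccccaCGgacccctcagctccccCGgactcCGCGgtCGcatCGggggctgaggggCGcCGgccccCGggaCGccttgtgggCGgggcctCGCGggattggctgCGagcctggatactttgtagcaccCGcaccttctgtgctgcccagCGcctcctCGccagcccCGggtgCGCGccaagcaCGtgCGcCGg

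These windows held 16 CpG pairs for ZNF141, 20 for ZNF268, 7 for SIRPB2, 2 for SIRPD, 4 for SDCBP2 and 33 for ANHX. Their GC content was 59.3% for ZNF141, 56.3% for SIRPB2, 51.0% for SIRPD and 72.3% for ANHX, against a median of 69.3% over all 1611 promoters at the ends. The telomere-type motif TTAGGG, searched on both strands, occurred in 5.10% of the 98 promoters with a peak, in 6.39% of all promoters at the ends and in 8.84% of all 22199 promoters. The motif TATAAA occurred in 7.14% of those 98, in 6.89% of all at the ends and in 9.47% of all promoters. Over the 2026 promoters of the whole genome with a peak, TTAGGG occurred in 10.3% and TATAAA in 12.9%.

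MicroRNA genes at the ends showed the same range. For hairpins, unlike promoters, any overlap with a peak was counted. Of 135 annotated hairpins, 13 lay under a peak in at least 1 library and 2 in all 14, MIR571 inside the zinc finger block of 4p and MIR8078 at 18p. MIR5707, just outside PTPRN2 at 7q, had a peak in 4 of 4 siSUV420H1 libraries, against 0 of 4 siNC libraries, and in 2 A-196 against 3 DMSO libraries. MIR4645, in the region that reaches SERPINB9 at 6p, had a peak in 0 A-196 against 3 DMSO libraries, and in 0 siSUV420H1 against 1 siNC library. Mature sequences from RefSeq (GRCh38.p14) are printed with the seed, bases 2 to 8, in capitals.
hsa-miR-571, chr4:350217-350237, plus strand: uGAGUUGGccaucugagugag
hsa-miR-8078, chr18:112266-112288, minus strand: gGUCUAGGcccggugagagacuc
hsa-miR-5707, chr7:158591625-158591646, plus strand: aCGUUUGAaugcuguacaaggc
hsa-miR-4645-5p, chr6:2854079-2854097, minus strand: aCCAGGCAagaaauauugu
hsa-miR-4645-3p, chr6:2854040-2854061, minus strand: aGACAGUAguucuugccugguu

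No seed was shared among these 5 mature sequences.

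The first comparison asked how much of the chromosome ends carried the mark once SUV420H1 was inhibited or depleted. Peaks at the ends covered 3.299, 4.889 and 3.765 Mb in the A-196 libraries, against 3.835, 3.520 and 3.803 Mb in the DMSO libraries. The groups overlapped, and the log2 difference of +0.08 gave an exact two-sided permutation p of 0.9 (adjusted over 4 library measures, 0.9). In the siRNA arm they covered 4.683, 4.632, 4.574 and 4.505 Mb in siSUV420H1 libraries, against 4.733, 4.783, 4.761 and 4.498 Mb in siNC libraries. These groups overlapped too (log2 −0.03, exact p = 0.286, adjusted p = 0.571). Without A-196 replicate 2 the log2 difference of the inhibitor arm was −0.08. The sign in the siRNA arm depended on the window: the log2 difference was 0.15 in the outer 1 Mb and 0.10 in the outer 2 Mb, and −0.32 in the outer 5 Mb (exact permutation, adjusted p = 0.0381 for each). When each library of an arm was limited to the same number of its widest peaks, the log2 difference was −0.064 with A-196 and 0.22 with siSUV420H1 (exact p = 0.5 and 0.0286).

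Elsewhere in the genome the covered length was lower in every treated library of both arms. It averaged 92.9 ± 14.5 Mb with A-196 and 144 ± 4.23 Mb with DMSO (SD, n = 3 each; exact p = 0.1, the smallest that 3 against 3 allows), and 120 ± 4.68 Mb with siSUV420H1 and 183 ± 5.40 Mb with siNC (SD, n = 4 each; exact p = 0.0286, the smallest for 4 against 4). The ends thus held a larger share of all covered bases: 4.14, 4.71 and 3.52% in A-196 libraries, against 2.51, 2.40 and 2.62% in DMSO libraries. In siSUV420H1 libraries the share was 3.78, 3.57, 3.86 and 3.58%, against 2.59, 2.50, 2.46 and 2.46% in siNC libraries. All treated libraries lay above all controls, and this share is the test of the difference between the ends and the rest. Its exact p was 0.1 with A-196 and 0.0286 with siSUV420H1, and the p-values adjusted over the 4 library measures, 0.133 and 0.114, did not pass 0.05.

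**Figure D1:**
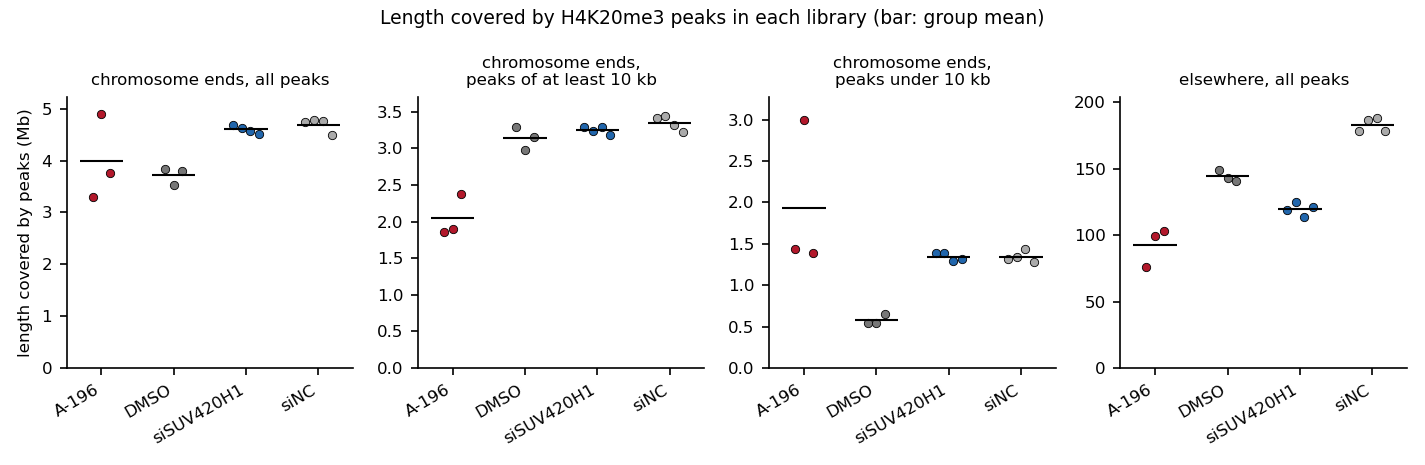
Length covered by H4K20me3 peaks in Mb (vertical axis, from 0 in each panel) for every library (points) with the group mean (bar): all peaks at the 38 ends, those of at least 10 kb, those under 10 kb, and all peaks elsewhere. At the ends the A-196 libraries lie below the DMSO libraries in wide peaks and above them in narrow ones, and the siRNA groups overlap in each panel of the ends.

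The total at the ends hid opposite differences by peak width in the A-196 arm. Peaks of at least 10 kb covered 1.863, 1.899 and 2.377 Mb of the ends in A-196 libraries, against 3.290, 2.974 and 3.157 Mb in DMSO libraries. Peaks under 10 kb covered 1.436, 2.990 and 1.388 Mb in A-196 libraries, against 0.545, 0.546 and 0.646 Mb in DMSO libraries. The groups did not overlap in either class, with log2 differences of −0.63 and +1.65 and an exact p of 0.1 for each. The ends held 293, 574 and 302 peaks with A-196, against 195, 186 and 201 with DMSO, and the median peak was 6.33 ± 0.577 kb and 10.3 ± 0.577 kb wide (SD, n = 3 each; exact permutation, adjusted p = 0.133 for both measures). Peaks of at least 10 kb alone were fewer with A-196, with a difference of −39.3. The median width elsewhere was also smaller, 6.33 kb with A-196 and 9.67 kb with DMSO. Peaks of at least 50 kb at the ends numbered 5, 6 and 4 with A-196, against 11, 8 and 11 with DMSO.

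After siSUV420H1 the narrow and wide classes did not separate at the ends. The ends held 348, 343, 336 and 346 peaks in siSUV420H1 libraries, against 344, 348, 353 and 319 in siNC libraries, and the median peak was 9 kb wide in all 8 libraries. Peaks of at least 50 kb were fewer, 8, 6, 6 and 7 with siSUV420H1 and 11, 10, 11 and 9 with siNC, without overlap (exact p = 0.0286). The widest peak was nevertheless larger, 350 ± 25.1 kb with siSUV420H1 and 257 ± 39.9 kb with siNC (SD, n = 4 each; exact p = 0.0286).

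The total of the siRNA arm was a balance of ends with opposite differences, and 3p weighed most in it. At 3p, peaks covered 565, 985, 497 and 794 kb in siSUV420H1 libraries, against 163, 172, 272 and 101 kb in siNC libraries. Without 3p the other ends covered 4.118, 3.647, 4.077 and 3.711 Mb in siSUV420H1 libraries, against 4.570, 4.611, 4.489 and 4.397 Mb in siNC libraries. The groups then no longer overlapped (log2 −0.22, exact p = 0.0286, adjusted over the 4 measures 0.0381), and over the 38 ends left out in turn 3p was the one whose omission gave a p under 0.05. Leaving out 6p, 20p or 15q instead gave log2 differences of 0.05, 0.04 and 0.01, opposite in sign to the total, with exact p = 0.0857, 0.229 and 0.657. These omissions were chosen after seeing the data. With 3p left out of the windows and of the total, the share of covered bases at the ends was higher with siSUV420H1 by 0.738 percentage points, against 1.196 with 3p.

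The second comparison followed the mark inward from the chromosome tip in steps of 0.5 Mb. The outermost 0.5 Mb was the most densely covered step within the windows in all 4 groups: 7.37 ± 0.417% of its bases with A-196, 6.77 ± 0.237% with DMSO (SD, n = 3 each), 8.24 ± 0.40% with siSUV420H1 and 7.39 ± 0.217% with siNC (SD, n = 4 each). In the next step the coverage was 2.63% with A-196, 2.08% with DMSO, 3.31% with siSUV420H1 and 2.96% with siNC. The coverage outside the windows was 3.20% with A-196, 5.10% with DMSO, 4.15% with siSUV420H1 and 6.47% with siNC. The outermost step, taken over all ends together, was thus above the rest of the autosomes in each group. Much of its covered length lay in the wide blocks of 4p and 12q. These averaged 468 and 375 kb with A-196, 456 and 379 kb with DMSO, 454.5 and 370.5 kb with siSUV420H1, and 398 and 322 kb with siNC. The outermost step was not computed without these blocks, so its high coverage is not shown for the other ends.

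The difference between siSUV420H1 and siNC changed sign with distance. Coverage of the outermost 0.5 Mb was 8.53, 8.11, 8.59 and 7.74% in siSUV420H1 libraries, against 7.49, 7.64, 7.27 and 7.15% in siNC libraries. It rose by 11.6%, and between 0.5 and 1 Mb it rose by 11.5%, while it fell by 18.5% between 2 and 2.5 Mb and fell by 27.9% between 2.5 and 3 Mb (exact permutation, adjusted p = 0.0429 over 6 steps for each of the 4). The 2 steps from 1 to 2 Mb did not pass the exact test (adjusted p = 0.514 and 0.343). Beyond the windows, from 3 to 6 Mb, the change in coverage was between −34.2% and −51.6% in each step, and the groups did not overlap in any of them. Without 3p, coverage of the outermost step was 8.10% with siSUV420H1 and 7.51% with siNC, and that of the next step 2.57% and 2.78%, with overlapping groups in both (exact p = 0.114 for each). From 1 to 3 Mb each step then fell, with changes of −15.7% to −35.7% (exact permutation, adjusted p = 0.0429). The blocks of 4p and 12q in the outermost step averaged 454.5 and 370.5 kb with siSUV420H1, against 398 and 322 kb with siNC. At 3p this step averaged 67.75 kb with siSUV420H1, against 14.75 kb with siNC. The difference of the outermost step with 3p, 4p and 12q all left out was not computed.

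**Figure D2:**
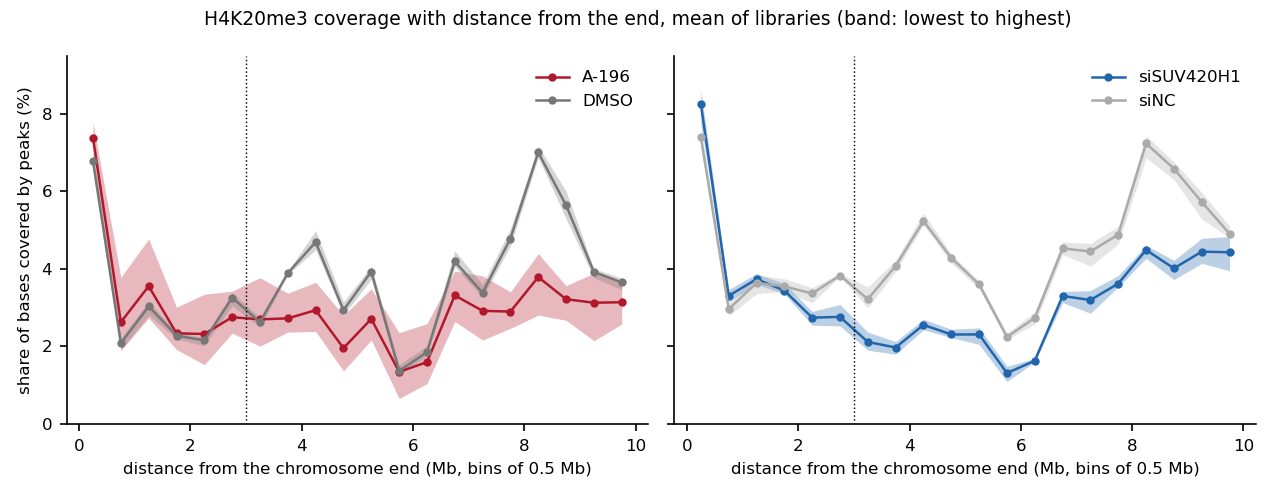
Share of bases covered by H4K20me3 peaks in percent (vertical axis) against distance from the chromosome end in Mb (horizontal axis, steps of 0.5 Mb to 10 Mb), as the mean of each group's libraries with a band from the lowest to the highest. The dotted line marks 3 Mb, the inner limit of the windows; the siSUV420H1 line lies above siNC in the outer 1 Mb and below it from 2 Mb inward.

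With A-196 none of the 6 steps within the windows separated from DMSO, where 3 against 3 libraries cannot give a p under 0.1. The outermost step was covered to 6.94, 7.40 and 7.77% in A-196 libraries, against 6.97, 6.51 and 6.83% in DMSO libraries (exact p = 0.2). From 3.5 to 5.5 Mb the coverage was lower in all 3 A-196 libraries, with changes of −29.98% to −37.4% per step. The groups overlapped from 3 to 3.5 Mb and from 5.5 to 6 Mb, with changes of 2.78% and −1.70%. Over 3 to 6 Mb the covered length averaged 2.73 Mb with A-196 and 3.69 Mb with DMSO. These groups overlapped as well (exact p = 0.2). The number of separated steps within the windows was 2 without A-196 replicate 2, 1 without A-196 replicate 1 and 1 without DMSO replicate 1. Counting peaks of at least 10 kb alone, 5 of the 6 steps separated, and with the same number of widest peaks in each library or with all 44 ends, 2 did.

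The third comparison took the ends 1 by 1. In the siRNA arm 15 of the 38 ends were lower in every siSUV420H1 library than in any siNC library and 7 were higher. Of all 947 windows of 3 Mb on the autosomes, 71.9% were lower and 6.97% higher by the same rule. All 22 of these ends had an adjusted p of 0.0362 in an exact permutation test over the 947 windows. Groups that are fully apart always give the smallest exact p of this arm, 0.0286. All 747 windows with such groups passed, so the test restates how the ends were chosen and adds no separate evidence. In the A-196 arm 8 ends were lower in all 3 libraries and 10 were higher, against 48.6% of all windows lower and 12.6% higher, and the smallest adjusted p was 0.164. Without A-196 replicate 1 the number of higher ends was 18. Peak width turned the balance of the A-196 arm: counting peaks of at least 10 kb alone, 16 ends were lower and 2 higher. In the siRNA arm the same count gave 11 higher ends, and with the same number of widest peaks in each library 8 ends were lower and 14 higher. The shares of all windows were not computed under these other settings, so these counts cannot be set against the genome.

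The largest negative difference of both arms was at 6p. Its peaks covered 181, 198 and 242 kb in A-196 libraries, against 475, 407 and 449 kb in DMSO libraries. They covered 169, 152, 165 and 144 kb in siSUV420H1 libraries, against 395, 402, 384 and 387 kb in siNC libraries. The means differed by −237 kb with A-196 and by −234.5 kb with siSUV420H1. At 3q, 6q and 15q the covered length was also lower in every treated library of both arms, with differences of −112, −110 and −104 kb for A-196 and of −76.8, −91.8 and −135 kb for siSUV420H1. With the same number of widest peaks in each library, the siRNA groups at 6q overlapped, with a difference of −35 kb. At 5q it was 95, 81 and 166 kb with A-196, against 216, 183 and 211 kb with DMSO, while the siRNA groups overlapped there.

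Peaks at 20p covered 178, 172, 156 and 188 kb in siSUV420H1 libraries, against 387, 376, 366 and 371 kb in siNC libraries, a difference of −201.5 kb. In the inhibitor arm 20p covered 146, 272 and 206 kb with A-196, against 237, 220 and 228 kb with DMSO, so the groups overlapped.

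The largest rise after siSUV420H1 was that of 3p, by 533 kb. In the inhibitor arm 3p carried 103, 100 and 134 kb in A-196 libraries, against 0 kb in each DMSO library. The siNC libraries, with 101 to 272 kb, were thus unlike the DMSO libraries at 3p. The coverage of 3p came from many separate peaks, 68, 93, 60 and 92 of them with siSUV420H1 and 25, 27, 35 and 17 with siNC, none wider than 44 kb. The siSUV420H1 libraries spread widely, from 497 to 985 kb. At 7q the peaks covered 215, 320 and 213 kb with A-196, against 72, 61 and 70 kb with DMSO, and 140, 124, 136 and 113 kb with siSUV420H1, against 80, 70, 74 and 71 kb with siNC. Both ends were higher in every treated library of both arms.

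The other ends with large positive differences were separated in 1 arm. After siSUV420H1, 1q rose by 115 kb, 4p by 66.5 kb and 12q by 58.5 kb. At 1q the libraries covered 258, 264, 247 and 270 kb with siSUV420H1, against 134, 151, 162 and 133 kb with siNC. With A-196, 20q was higher by 103 kb, 5p by 88.3 kb and 13q by 84.7 kb, each with the highest value in A-196 replicate 2. At 20q the libraries covered 85, 219 and 16 kb with A-196, against 6, 5 and 0 kb with DMSO. Counting peaks of at least 10 kb alone, 5p and 13q were lower with A-196, with differences of −23.3 and −0.333 kb, and the groups at 20q and 3p overlapped.

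**Figure D3:**
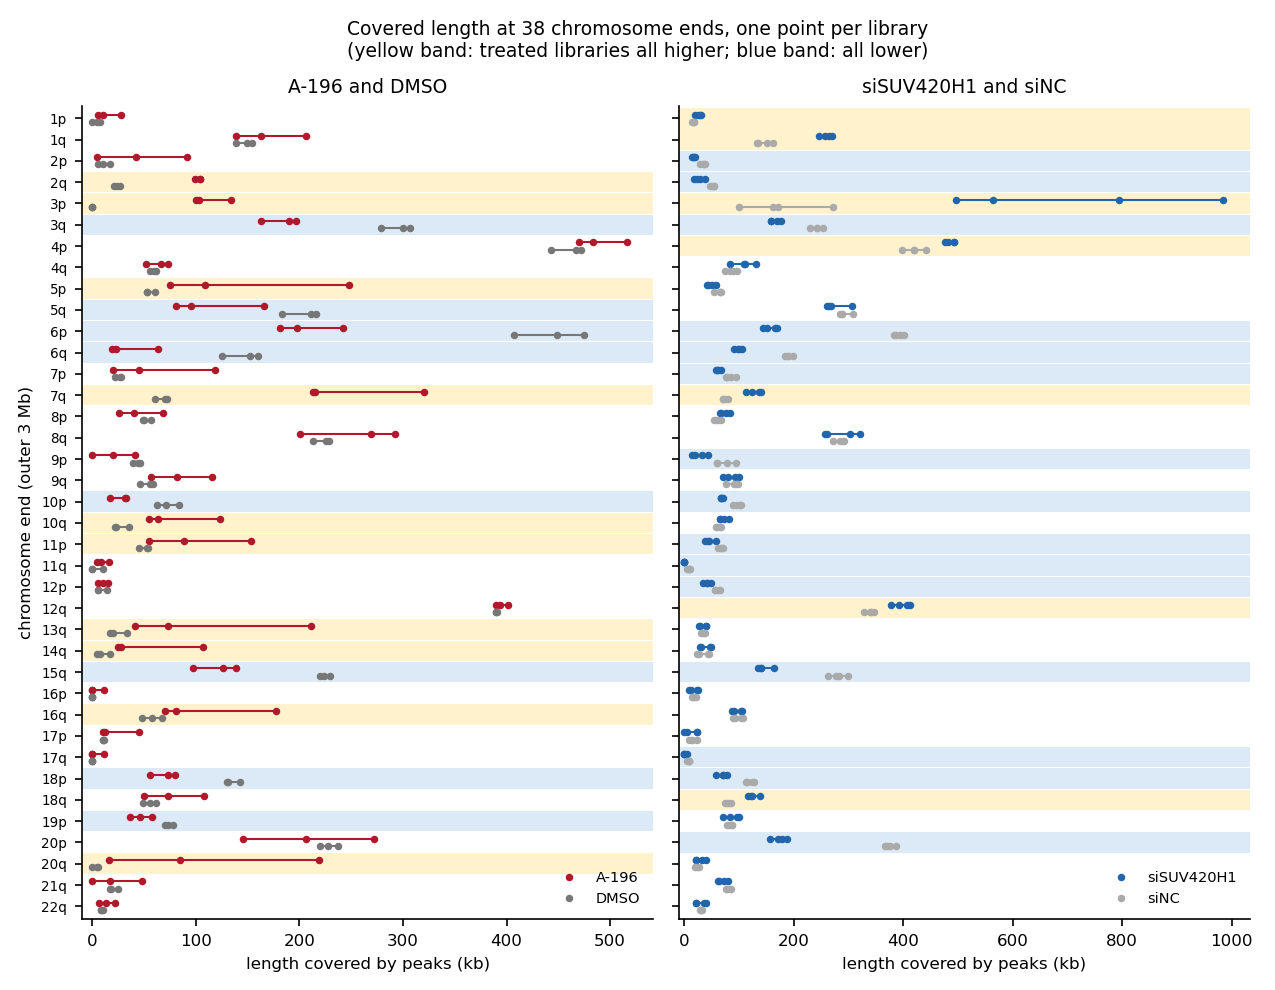
Length covered by H4K20me3 peaks in kb (horizontal axis) at each of the 38 chromosome ends (rows), 1 point per library with a line from the lowest to the highest, A-196 above DMSO on the left and siSUV420H1 above siNC on the right. Yellow bands mark ends where all treated libraries were higher and blue bands those where all were lower; 6p is blue and 3p and 7q are yellow in both panels.

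The maps of individual peaks at 6p, 20p, 3p and 7q show where these differences lay. At 6p the innermost 0.5 Mb held 69.3 kb of peaks on average with siSUV420H1, against 184.5 kb with siNC, and 97 kb with A-196, against 218 kb with DMSO. The step from 1 to 1.5 Mb of 6p held 14 kb with siSUV420H1, against 77.8 kb with siNC, and 36 kb with A-196, against 111 kb with DMSO. At 20p the step from 1.5 to 2 Mb, which holds most of the SIRP genes, averaged 40.5 kb with siSUV420H1, against 145.5 kb with siNC, and 64 kb with A-196, against 104 kb with DMSO.

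At 3p the mean coverage was higher with siSUV420H1 in each of the 6 steps and highest from 1.5 to 2 Mb, with 194 kb, against 57.5 kb with siNC. At 7q the step from 1 to 1.5 Mb, inside PTPRN2, held 86.5 kb with siSUV420H1, against 44 kb with siNC, and 139 kb with A-196, against 48 kb with DMSO. The widest peak at 7q spanned 48 to 56 kb in A-196 libraries, against 29 to 38 kb in DMSO libraries, and 48 to 52 kb in siSUV420H1 libraries, against 21 to 22 kb in siNC libraries.

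**Figure D4:**
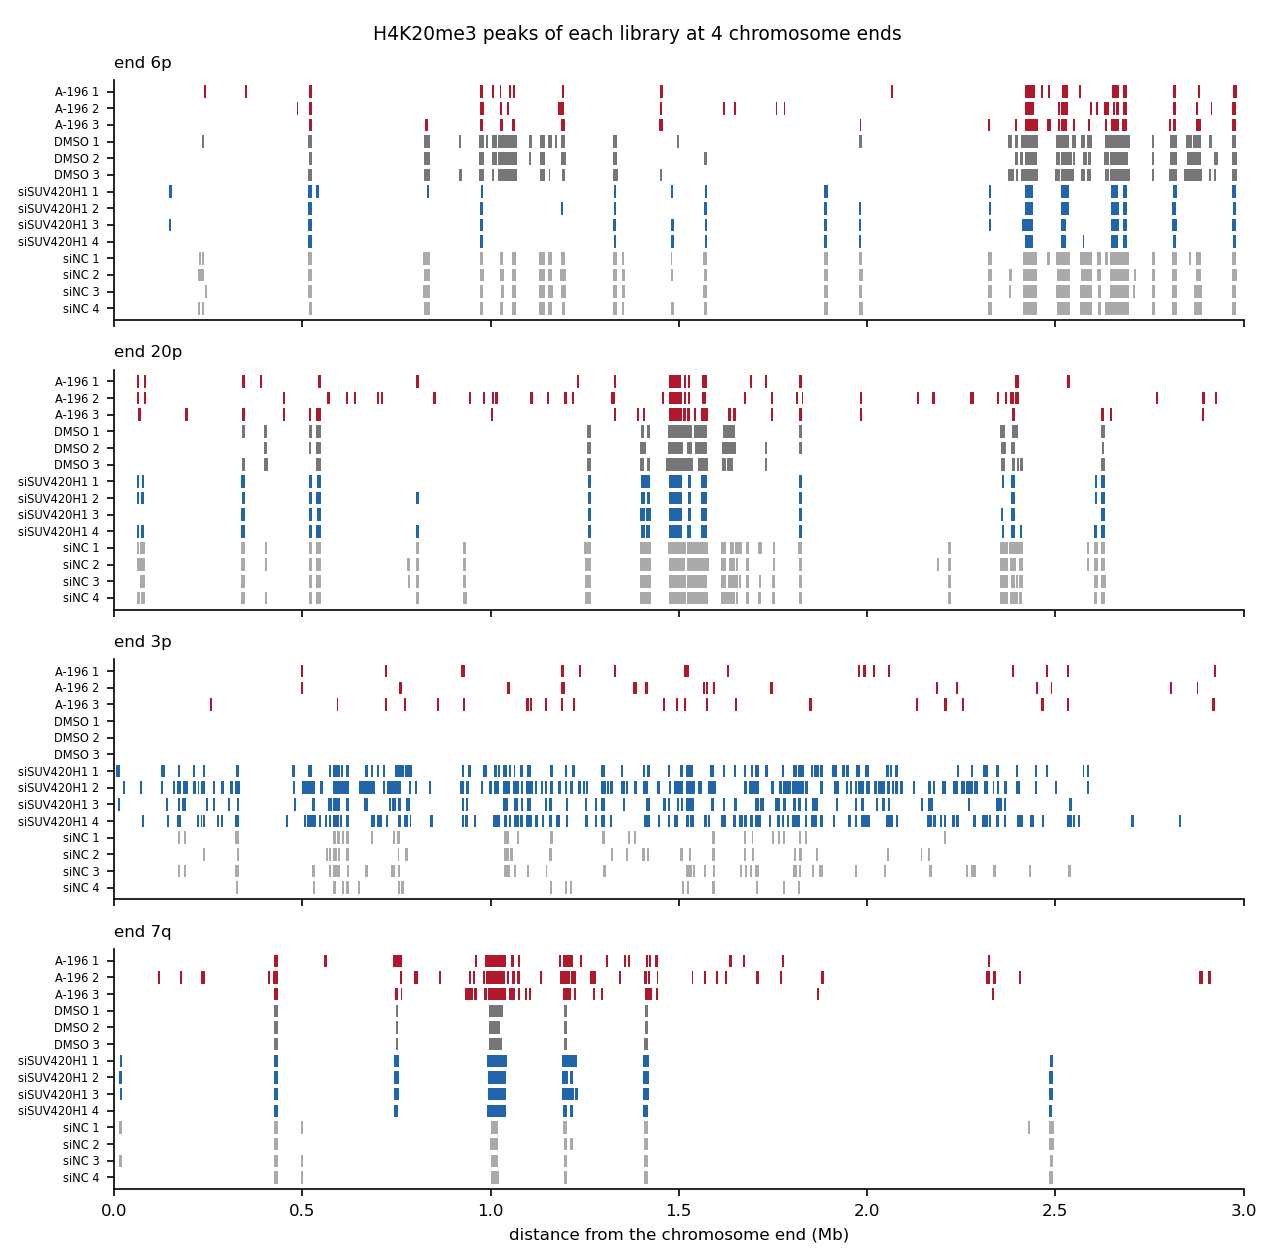
H4K20me3 peaks (bars) of the 14 libraries (rows, A-196 above DMSO and siSUV420H1 above siNC) at the ends 6p, 20p, 3p and 7q, against distance from the chromosome end in Mb (horizontal axis, 0 to 3). The siSUV420H1 rows carry fewer bars than siNC rows at 6p and 20p and more at 3p; the DMSO rows are empty at 3p.

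The fourth comparison took the merged regions. A region was called lost when every control library of an arm had a peak in it and no treated library had one, gained in the opposite case, and kept when all libraries of the arm had one. With A-196, 22 of the 1119 regions were lost and 16 gained, against 4.75% lost and 0.837% gained of all 32145 regions. After siSUV420H1, 39 were lost and 16 gained, against 9.53% and 0.852% of all regions. Of the regions at the ends present in every DMSO library, 68 of 130, or 52.3%, were kept with A-196, against 32.5% elsewhere. Of those present in every siNC library, 153 of 233, or 65.7%, were kept after siSUV420H1, against 49.2% elsewhere. These shares are descriptions, and no single region passed an exact test adjusted over all regions (smallest adjusted p 0.686 with A-196 and 0.129 with siSUV420H1). Without A-196 replicate 3 there were 43 lost and 42 gained regions, and without replicate 1 or 2 there were 39 and 30 gained ones. Counting peaks of at least 10 kb alone, 2 regions were gained with A-196 and 22 lost after siSUV420H1. With the same number of widest peaks, 13 were lost and 39 gained after siSUV420H1, and where at least 50% of a region had to be covered, 40 were lost and 7 gained with A-196.

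The distance of lost and gained regions from the tip is given as a description. The median distance from the tip was 857 kb for regions gained and 1576 kb for regions lost with A-196, and 932.5 kb for regions gained and 1750 kb for regions lost after siSUV420H1. In the outer 1 Mb, 58 of 81 regions present in every siNC library were kept after siSUV420H1 and 8 were lost; between 2 and 3 Mb, 45 of 75 were kept and 15 lost. In the inhibitor arm 24 of 38 were kept and 4 lost in the outer 1 Mb, and 24 of 47 were kept and 7 lost between 2 and 3 Mb.

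Of the 1119 regions, 59 had a peak in all 14 libraries. They lay at 25 ends, had a median width of 30 kb against 7 kb over all regions, and 39 held a coding gene, 14 of them a zinc finger gene. A merged region can only widen with each library that has a peak in it, and 581 of all regions came from 1 library. These widths are thus not directly comparable. The widest was the outer block of 4p (chr4:8001-504000), over the zinc finger genes ZNF595, ZNF718, ZNF732, ZNF141 and ZNF721 and PIGG, a gene of glycolipid anchor synthesis. Peaks covered 473, 443 and 487 kb of it with A-196 and 464, 443 and 461 kb with DMSO, so the groups overlapped. They covered 444, 463, 461 and 450 kb of it with siSUV420H1, against 396, 419, 404 and 374 kb with siNC, higher in each siSUV420H1 library. Parts of this block have near-identical copies on other chromosomes, so the place of their reads is uncertain.

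The second widest lay at 12q (chr12:132878001-133260000), over CHFR, a mitotic checkpoint ubiquitin ligase gene, the zinc finger genes ZNF605, ZNF26, ZNF84, ZNF140, ZNF891, ZNF10 and ZNF268, and ANHX. It was covered over 378, 357, 376 and 371 kb with siSUV420H1, against 329, 321, 313 and 324 kb with siNC, and over 369 to 380 kb in each library of the inhibitor arm. The other wide constant regions were narrower in treated libraries. At 3q (chr3:197294001-197507000), at the edge of DLG1, a scaffold protein gene of cell junctions, they covered 95, 91 and 138 kb with A-196, against 212, 202 and 213 kb with DMSO, and 76, 64, 66 and 65 kb with siSUV420H1, against 105, 106, 104 and 113 kb with siNC. At 15q (chr15:100659001-100764000), in a stretch with no coding gene, they covered 72, 52 and 91 kb with A-196, against 105, 101 and 101 kb with DMSO, and 80, 66, 77 and 65 kb with siSUV420H1, against 98, 99, 99 and 100 kb with siNC.

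The fifth of these regions was the SIRP block of 20p (chr20:1467001-1581000), where SIRPB2, SIRPD and SIRPB1 code for signal-regulatory proteins of the immunoglobulin family. Peaks covered 59, 54 and 75 kb of it with A-196, against 99, 86 and 96 kb with DMSO, and 59, 56, 57 and 59 kb with siSUV420H1, against 103, 104, 100 and 100 kb with siNC. The neighbouring region over SIRPB1 and SIRPG (chr20:1612001-1668000) was lost after siSUV420H1. It carried 0 kb in all 4 siSUV420H1 libraries, against 40, 35, 41 and 42 kb in siNC libraries, and 0, 0 and 16 kb with A-196, against 30, 37 and 28 kb with DMSO. The SIRP genes are similar in sequence, so reads of one may have been placed on another.

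Of the lost regions, 5 were lost in both arms, and of the gained regions 0 were gained in both. The matching counts over all regions of the series are not given here, so these counts have no background to be read against. The widest of the 5 regions lost in both arms lay at 10p (chr10:2187001-2217000), over the noncoding gene LINC02662. It held 0 kb in every A-196 and siSUV420H1 library, against 11, 20 and 19 kb in DMSO and 30, 27, 25 and 26 kb in siNC libraries. Another lay at 6p (chr6:1129001-1145000), with no annotated gene, and held 0 kb in all treated libraries, against 12 kb in each DMSO and 15 kb in each siNC library. The other 3 lay over ADAMTS17 at 15q, MYLK4 at 6p and the uncharacterised LOC105378148 at 6q, and were named after their values were seen.

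The other long regions lost after siSUV420H1 lay at 18p (chr18:2287001-2311000, no coding gene) and at 6p over LINC01622 (chr6:1019001-1070000) and up to the edge of SERPINB9 (chr6:2842001-2889000), which codes for an inhibitor of granzyme B. The region at SERPINB9 held 0 kb in each siSUV420H1 library, against 20, 12, 20 and 19 kb in siNC libraries, and 5, 6 and 12 kb with A-196, against 36, 36 and 47 kb with DMSO. With A-196 the other long lost regions lay at 16q (chr16:87783001-87800000), at 6p beside FOXF2-DT (chr6:1325001-1338000), and at 20p (chr20:1247001-1268000) over RAD21L1, a meiotic cohesin gene, and SNPH, a gene of mitochondrial anchoring in axons. The 20p region held 0 kb in each A-196 library, against 12, 10 and 12 kb with DMSO, and was kept in the siRNA arm with 8, 8, 7 and 7 kb, against 21, 16, 17 and 16 kb with siNC.

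Gained regions had a median width of 15 kb with A-196 and 11 kb after siSUV420H1, against 10 kb for lost regions in both arms and 7 kb for all regions at the ends. These widths also depend on how many libraries had a peak in a region. With A-196 the one with the most coverage was inside PTPRN2 at 7q (chr7:158280001-158303000), with 9, 14 and 17 kb against 0 kb in each DMSO library and 0 kb in all 8 libraries of the siRNA arm. The others named lay at 20p (chr20:60001-86000), at 10q (chr10:133643001-133662000), at 1q inside SCCPDH (chr1:246736001-246751000) and at 8q inside ARHGAP39. After siSUV420H1 the one with the most coverage lay at 18q (chr18:78487001-78508000), with 20, 11, 20 and 19 kb against 0 kb in each siNC library. Another lay across an end of PTPRN2 (chr7:158580001-158605000) with 11, 11, 11 and 10 kb against 0 kb in siNC libraries, which all 6 libraries of the inhibitor arm also carried. The rest named lay at 3p (chr3:1906001-1925000), at 8q over ZNF34, and at 10q over the D4Z4-type gene copy DUX4L15 (chr10:133759001-133769000), whose reads cannot be told from those of other copies.

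The fifth comparison took the coding genes, by the length of each gene, with 2 kb on both sides, that lay under peaks. Of 1557 coding genes at the ends, 397 were covered over at least 200 bp in some library and 51 in all 14. With A-196, 29 genes were lower in all 3 libraries and 13 higher, against 5.47% lower and 1.09% higher of all 19866 coding genes. After siSUV420H1, 31 were lower in all 4 libraries and 37 higher, against 6.68% and 2.08% of all coding genes. The share lower at the ends, 1.86% with A-196 and 1.99% with siSUV420H1, lay below that of all genes, and the share higher was 0.835% with A-196 and 2.38% with siSUV420H1. No single gene passed a test adjusted over all coding genes (smallest adjusted p 1 with A-196 and 0.326 with siSUV420H1), so genes are described by whether the groups overlapped. Without A-196 replicates 1, 2 or 3 there were 34, 24 or 34 higher genes, and without replicate 3 there were 46 lower ones. Counting peaks of at least 10 kb alone, 3 genes were higher with A-196 and 20 lower after siSUV420H1.

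Genes of 6p and 20p led those that were lower in both arms. MYLK4 (chr6:2663637-2770376), which codes for a myosin light chain kinase family member, was covered over 17.4, 16.4 and 21.4 kb with A-196, against 41.4, 38.4 and 42.4 kb with DMSO. In the siRNA arm it was covered over 17.4, 16.4, 16.4 and 16.4 kb with siSUV420H1, against 41.4, 47.4, 47.4 and 42.4 kb with siNC. SIRPG (chr20:1629152-1686455), which codes for a receptor of T cells, was covered over 0, 5 and 16 kb with A-196, against 20.8, 24.8 and 17.8 kb with DMSO, and over 0 kb in all 4 siSUV420H1 libraries, against 38, 32, 39 and 36.8 kb with siNC. SIRPD (chr20:1534251-1557705) was covered over 0, 0 and 5.71 kb with A-196, against 22.5, 19.5 and 13.5 kb with DMSO. After siSUV420H1 SIRPD kept at most 1.46 kb, against 27.5 kb in each siNC library. The groups of these 3 genes were apart in both arms.

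Genes lower in 1 arm were of other kinds. With A-196 they included DLG1 (21, 21 and 23.3 kb, against 36.3, 34.3 and 37.3 kb with DMSO) and the zinc finger genes ZNF596, ZNF670, ZNF555 and ZNF354A. ZNF555 at 19p (chr19:2841475-2860471) was covered over 2.47, 1.53 and 5.53 kb with A-196, against 16.5, 15.5 and 15.5 kb with DMSO, while the siRNA groups overlapped at 18.5 to 19.5 kb. After siSUV420H1 they included TGM6, a transglutaminase gene at 20p (11, 10, 10 and 16 kb, against 34.1, 26, 29 and 31 kb with siNC), BTNL8, a butyrophilin-like gene at 5q (0 kb in all 4 libraries, against 11 to 24.8 kb with siNC), and ADAMTS17, a secreted protease gene at 15q (0 kb in all 4, against 8 to 15 kb). KCNQ1 at 11p, a potassium channel gene in an imprinted domain, was covered over 35, 38, 37 and 38 kb with siSUV420H1, against 50, 51, 52 and 45 kb with siNC. In the inhibitor arm KCNQ1 went the other way, with 50, 49 and 45 kb with A-196, against 41, 38 and 39 kb with DMSO; counting peaks of at least 10 kb alone, its mean with A-196 was 5 kb lower. In that count the groups of ZNF670 with A-196 and of BTNL8 and ADAMTS17 after siSUV420H1 overlapped, with differences of −9, −9.5 and 0 kb. With the same number of widest peaks in each library the siRNA groups of ADAMTS17 overlapped too, with a difference of −6.25 kb.

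The genes with the largest positive differences were PTPRN2, CNTN4, ZNF469, CNTN6, ARHGAP39, EXD3, KCNQ1 and SCCPDH with A-196, and CNTN4, CNTN6, PTPRN2, CHL1, ZNF124, ANHX, ZNF695 and SMYD3 after siSUV420H1. PTPRN2 (chr7:157539056-158587823), a receptor-type phosphatase family gene of secretory vesicles, was covered over 178, 233 and 183 kb with A-196, against 56, 47 and 55 kb with DMSO, and over 105, 86, 101 and 84 kb with siSUV420H1, against 42, 50, 41 and 44 kb with siNC. CNTN4 (chr3:2098866-3057959), a contactin gene of neuronal cell adhesion, was covered over 20, 31 and 38 kb with A-196, against 0 kb in each DMSO library, and over 60, 139, 56 and 162 kb with siSUV420H1, against 5, 11, 46 and 0 kb with siNC. CNTN6 (chr3:1093024-1404217), another contactin gene, was covered over 18, 20 and 28 kb with A-196, against 0 kb with DMSO, and over 51.2, 127, 61 and 82 kb with siSUV420H1, against 25, 22.2, 20 and 16 kb with siNC. CHL1 at 3p, which codes for a neuronal adhesion molecule of the L1 family, was covered over 19, 57.2, 21 and 36 kb with siSUV420H1, against 9, 11, 11 and 5 kb with siNC. ZNF469 at 16q, a zinc finger gene, was covered over 32.8, 49 and 32 kb with A-196, against 10, 9 and 10 kb with DMSO. EXD3 at 9q was covered over 37, 43.1 and 45.1 kb with A-196, against 27, 30 and 30 kb with DMSO. ZNF695 at 1q was covered over 32.1, 33.1, 34.1 and 33.1 kb with siSUV420H1, against 19, 17.1, 19 and 20 kb with siNC, and SMYD3 at 1q, a SET domain methyltransferase gene, over 28, 15, 27 and 18 kb, against 9, 8, 10 and 6 kb. Of the list of 17 neuronal adhesion and signalling genes at the ends, 0 were lower and 3 higher with A-196, and 0 lower and 7 higher after siSUV420H1, or 17.6% and 41.2% higher, against 1.09% and 2.08% of all coding genes, with a median difference of +2 and 0 kb. Of these 17 genes, 15 carried the mark in some library, against 6575 of 19866 coding genes. A gene without a peak in any library cannot be called, so these shares depend on how often genes were marked. The list was chosen with earlier results of these data known, its members at 3p share 1 stretch of the genome, and its counts are no independent support for a direction. Counting peaks of at least 10 kb alone, the groups of CNTN4 overlapped in both arms, as did those of CNTN6, ZNF469, ARHGAP39, EXD3 and SCCPDH with A-196 and of CHL1, ANHX and SMYD3 after siSUV420H1. With the same number of widest peaks, those of CHL1 overlapped as well.

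**Figure D5:**
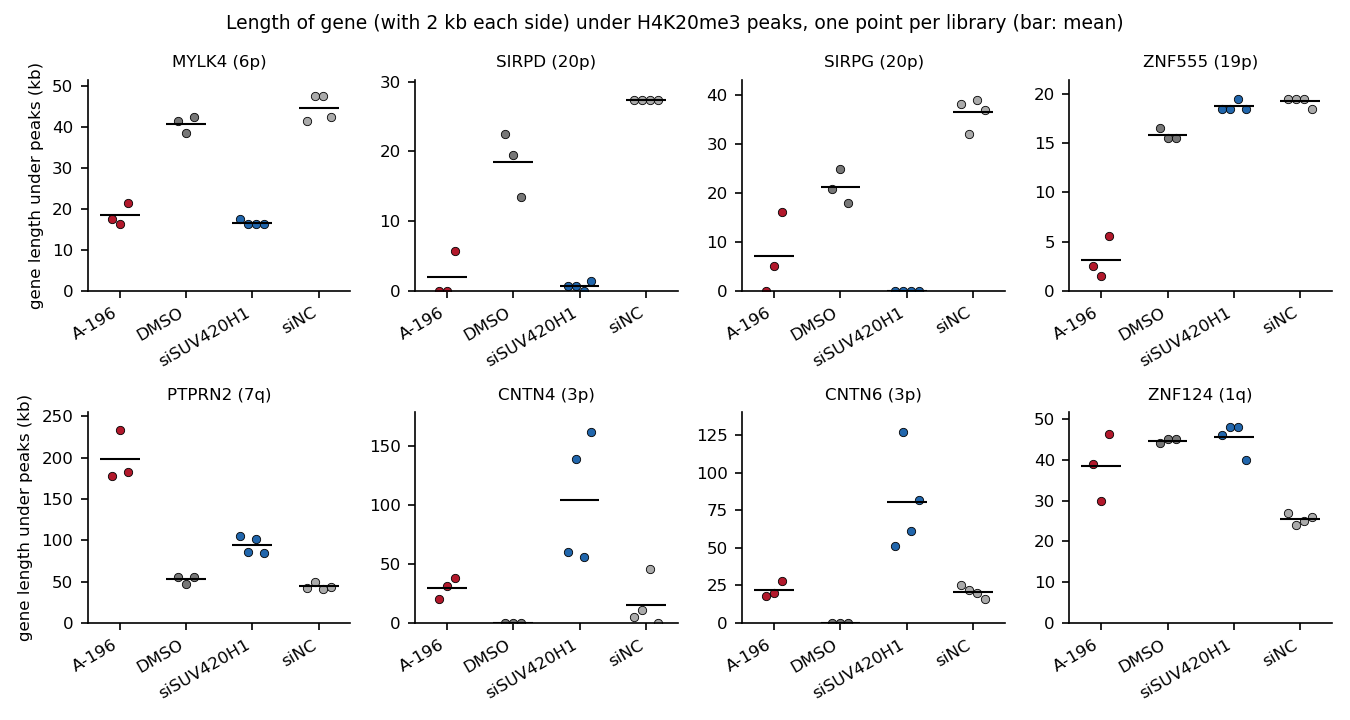
Length of 8 genes, with 2 kb on both sides, under H4K20me3 peaks in kb (vertical axes from 0) in every library (points) with group means (bars); the chromosome end stands beside the gene. MYLK4, SIRPD and SIRPG are lower and PTPRN2, CNTN4 and CNTN6 higher in the treated libraries of both arms, ZNF555 is lower with A-196 and ZNF124 higher after siSUV420H1.

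Of the 51 coding genes at the ends that carried the mark in all 14 libraries, 24 were zinc finger genes. The list of C2H2 zinc finger genes at the ends also had 51 members, of which 38 carried the mark in some library. With A-196, 8 were lower and 1 higher, or 15.7% and 1.96% of the list, against 5.47% and 1.09% of all coding genes. After siSUV420H1, 1 was lower and 11 higher, or 1.96% and 21.6%, against 6.68% and 2.08% of all coding genes. A gene without a peak in any library can be neither lower nor higher. The mark was carried in some library by 38 of the 51 members, against 6575 of 19866 coding genes. These shares thus depend on how often genes were marked, and marked genes alone were not compared. Members that share a block, such as that of 4p, are not independent of each other. The median difference of the list was 0 kb in both arms, as over all coding genes, and the difference between the arms was not tested for single genes. ZNF124 at 1q (chr1:247121975-247172379) was covered over 46, 48, 48 and 40 kb with siSUV420H1, against 27, 24, 25 and 26 kb with siNC, and over 39, 30 and 46.4 kb with A-196, against 44, 45 and 45 kb with DMSO. ZNF670 nearby was covered over 8, 5 and 13.8 kb with A-196, against 27.8, 16.8 and 23.8 kb with DMSO, and over 27.4, 32.2, 30.2 and 26.4 kb with siSUV420H1, against 23.4, 22.4, 23 and 22 kb with siNC. ZNF141 and ZNF595 of the 4p block were covered over their full length in all 14 libraries.

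The other lists gave few calls. Of 56 olfactory receptor genes at the ends, 16 carried a peak in some library, and 1 was higher with A-196 (OR2T8) and 1 after siSUV420H1 (OR2T1). Each is 1.79% of the list, against 1.09% of all coding genes with A-196 and 2.08% after siSUV420H1, and the groups of both genes overlapped when peaks of at least 10 kb alone were counted. Of 19 genes of families copied between subtelomeres, 3 carried the mark in all 14 libraries, 0 were called with A-196 and ZNF718 alone was higher after siSUV420H1. DUX4 at 4q (chr4:190173774-190185911), the transcription factor gene of the D4Z4 repeats, was covered over 13 to 14 kb in all 14 libraries, with the limit that the repeat copies at 4q and 10q are nearly identical. TERT at 5p (chr5:1253167-1295068), the catalytic subunit gene of telomerase, was covered over 7, 8 and 0 kb with A-196 and 0 kb in each of the other 11 libraries. RTEL1 at 20q, a helicase gene of telomere maintenance, was covered over 0, 7 and 0 kb with A-196, against 0 kb with DMSO, and over 8.25, 5, 8.25 and 0 kb with siSUV420H1, against 0 kb with siNC. ISG15 at 1p, a ubiquitin-like interferon-induced gene, carried no peak in any library. EHMT1 at 9q, which codes for an H3K9 methyltransferase and was the single gene of the H4K20 and heterochromatin machinery at the ends, was covered over 0, 6 and 5 kb with A-196, against 13, 7 and 12 kb with DMSO, and over 20, 20, 25 and 19 kb with siSUV420H1, against 18 kb in each siNC library.

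The arms were last compared with each other, by permuting the labels within each arm. The effects on the covered length of all ends differed by 0.11 on the log2 scale (A-196 minus siSUV420H1, exact p = 0.653), and those on the share of covered bases by 0.414 percentage points (exact p = 0.674). The log2 difference changed sign with peak width and number: it was −0.58 for peaks of at least 10 kb (exact p = 0.0943) and −0.29 with the same number of widest peaks in each library (exact permutation, adjusted p = 0.0171). Of the single ends, 2q and 11p differed between the arms after adjustment over all 947 windows (exact permutation, adjusted p = 0.0376 for both). At 2q the peaks covered 99, 104 and 104 kb with A-196, against 27, 24 and 21 kb with DMSO, and 28, 24, 38 and 18 kb with siSUV420H1, against 54, 54, 50 and 47 kb with siNC. At 11p they covered 89, 153 and 55 kb with A-196, against 53, 45 and 54 kb with DMSO, and 44, 45, 58 and 38 kb with siSUV420H1, against 71, 68, 68 and 61 kb with siNC. Both ends were higher in the A-196 arm and lower in the siRNA arm.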

How the data were processed

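H4K20me3 was profiled by CUT&RUN in 14 libraries (3 A-196, 3 DMSO, 4 siSUV420H1 and 4 siNC), grouped by their titles. The other 10 of 24 samples (IgG, H3K4me3 and H3K27me3) were not analysed here. Each deposited list gives peak starts and ends in base pairs, with no score or count. The submitters' processing notes name hg38, bedtools 2.30.0, Picard 2.27.3, cutadapt 4.4 and Bowtie among what the authors used. According to how the lists are labelled, duplicates were removed and broad peaks were called for each library with 1 IgG control, from DMSO cells in the inhibitor arm and from cells of no stated treatment in the siRNA arm. The peak caller is not given in the sources used here, and depth per library is unknown.

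Covered length is the sum of peak widths in the windows. Differences of group means were tested by enumerating every two-sided permutation of the libraries, an exact test (Python 3.11.15, NumPy 2.4.6), on the log2 scale for lengths, with Benjamini-Hochberg adjustment over 4 library measures, 6 distance steps, or all windows, regions or coding genes of the series, at 0.05. The design had named the 38 ends as the family for single ends; all 947 windows were used instead. Called features are those whose groups did not overlap. Genes, promoters and miRNAs came from RefSeq tables (GRCh38.p14); 190 coding genes on other sequences were left out. The code was tested on 14 made-up lists and returned all 6 known values. Replicate numbers did not pair the libraries (correlations of same-numbered deviations over all regions −0.31 to 0.10).

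The regions, gene lists and tests were chosen with earlier results of these data known. Named items are, per comparison, the 5 lost, gained and constant regions with the longest coverage, the 5 ends and 8 genes with the largest differences each way where libraries of the groups were fully apart, at most 5 genes per list, TERT and ISG15. Alternatives covered the window, the ends, peak width and number, merging, the group summary, pairing and single libraries left out.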

Additional observations from a re-analysis of the deposited data

Results flagged for a closer look

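Within groups of 4 libraries, 94 were examined for a library far from the others, and 5 stood out, where chance alone marks about 1 in 20. The widest peak at the ends was 317 kb in siNC replicate 1, against 236 to 239 kb in the other siNC libraries. At 5q, siSUV420H1 replicate 1 had 307 kb of peaks, against 261 to 268 kb in the others. At 5p, siNC replicate 2 had 54 kb, against 65 to 67 kb in the others. At 17q, siSUV420H1 replicate 3 had 5 kb, against 0 kb in the others, and siNC replicate 1 had 6 kb, against 8 kb in the others. The effects of the arms differed at 2q by 103 kb and at 11p by 69.1 kb (A-196 effect minus siSUV420H1 effect; exact permutation, adjusted p = 0.0376 over 947 windows for both). At both ends all 3 A-196 libraries were above DMSO and all 4 siSUV420H1 libraries below siNC. The part of the different IgG controls and library sets of the arms in these differences was not tested.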

How the results depend on the processing

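The peak lists carry no depth, so low coverage and loss of the mark cannot be told apart, and 3 against 3 libraries cannot give p under 0.1. The values below are log2 differences of covered length, differences in peak number or share, or counts. The matching shares of all windows, regions or genes were not computed under these settings. Causes were not tested unless fewer features entered.

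With a 1 Mb window, A-196 gave 4 lower ends, 4 lost and 9 gained regions, and 7 lower and 3 higher genes. siSUV420H1 gave log2 0.15, 8 more peaks, a share higher by 0.71 points, 8 lost and 9 gained regions, and 7 lower and 18 higher genes. With 2 Mb, A-196 gave 5 lower ends and 19 lower and 8 higher genes, and siSUV420H1 log2 0.10, 11.5 more peaks, 1.09 points, 24 lost regions and 20 lower genes. With 5 Mb, A-196 gave log2 −0.13, 13 lower ends, 54 lost regions and 45 lower genes, and siSUV420H1 log2 −0.32, a peak difference of −93.5, 0.865 points, 98 lost regions and 53 lower genes. With all 44 ends, A-196 gave 2 separated distance steps and 32 higher genes, and siSUV420H1 log2 0.031.

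With peaks of at least 10 kb alone, A-196 gave log2 −0.63, a peak difference of −39.3, 16 lower and 2 higher ends, 2 gained regions, 5 separated steps and 3 higher genes. The differences at 13q, 5p and KCNQ1 were then −0.333, −23.3 and −5 kb. siSUV420H1 gave a peak difference of −4, 11 higher ends, 22 lost regions and 20 lower genes, and the arms differed by −0.58 (log2). With the same number of widest peaks in each library of an arm, A-196 gave log2 −0.064 and 2 steps. siSUV420H1 then gave log2 0.22 (exact p = 0.0286), 109.5 more peaks, a median width difference of −2.25 kb, 1.22 points, 8 lower and 14 higher ends, and 13 lost and 39 gained regions. The arms differed by −0.29 (exact permutation, adjusted p = 0.0171). Where at least 50% of a region had to be covered, A-196 gave 40 lost and 7 gained regions. By group medians, A-196 gave log2 −0.014 and siSUV420H1 a peak difference of −1.5. Without 3p, chosen after seeing the data, siSUV420H1 gave log2 −0.22, a peak difference of −50, 0.723 points with 3p kept in the total, and 10 gained regions. Of the single named items, 25 calls were lost under the width and number settings. Leaving out a library cannot make groups that are apart overlap, so it could not undo a call.

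Leaving out 1 library at a time, A-196 gave log2 −0.077 (without A-196 replicate 2) to 0.21, 103.5 to 244 more peaks, width −4.33 to −3.67 kb, 1.32 to 1.91 points, 8 to 10 lower and 11 to 18 higher ends, 25 to 43 lost and 17 to 42 gained regions, 0 to 2 steps, and 30 to 46 lower and 13 to 34 higher genes. siSUV420H1 gave log2 −0.05 to −0.02, a peak difference of −5.08 (without siNC replicate 4) to 6.25, 1.14 to 1.24 points, 15 to 18 lower and 7 to 8 higher ends, 41 to 46 lost and 16 to 24 gained regions, 4 to 5 steps, and 31 to 36 lower and 38 to 48 higher genes. The arms differed by −0.047 (without A-196 replicate 2) to 0.24 (log2) and 0.123 to 0.717 points.

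With a replicate block, although the numbers did not pair the libraries, log2 was 0.08 for A-196 (exact p = 1) and −0.03 for siSUV420H1 (exact p = 0.25), and the share differed by 1.61 (exact p = 0.25) and 1.196 points (exact p = 0.125, the smallest for 4 pairs). Lower and higher ends numbered 8 and 12 with A-196 and 18 and 7 with siSUV420H1. Lost and gained regions were not computed under the block, and no other call changed.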
